A study of Mus musculus with 13 samples.

Results

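The clustered histone genes are the small genes that encode the bulk of chromatin protein, 4 core histones (H2A, H2B, H3 and H4) and the linker histone H1. They were taken as every gene whose symbol begins with Hist1h, Hist2h, Hist3h or Hist4h, with no filter on level, which gave 67 of the 23217 genes measured. By type they were 6 H1, 18 H2A, 18 H2B, 12 H3 and 13 H4 genes. By cluster, on the mm9 build used throughout for levels, 53 lay in Hist1 on chromosome 13 (21807632 to 24026720), 10 in Hist2 on chromosome 3 (96023839 to 96074115), 3 in Hist3 on chromosome 11 (58762413 to 58770176) and 1, Hist4h4, on chromosome 6 (136750074 to 136752952). Hist3h2bb-ps is named as a pseudogene.

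RNA came from 13 whole mouse embryos at embryonic day 9.5 (E9.5), on a C57BL/6J background, from a series on Tet1 and the erasure of genomic imprints. The labels give 3 embryos as xHet and 10 as xHomo and do not spell out these names. By general knowledge of the study and not by its labels, the fathers were heterozygous or homozygous for mutant Tet1. Levels are in FPKM, that is, fragments counted on a gene divided by its length and by the size of the library, and the number of reads behind them is unknown. Litter, batch and sex are not labelled, so a p-value here measures only the spread between these embryos.

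Genes of this family are switched on as cells copy their DNA, when new chromatin needs new histones. Their messages are unusual in having no introns and, in most cases, no poly(A) tail. They end instead in a short hairpin, the stem-loop, which the protein SLBP binds to guide cutting, export, translation and decay of the message. These libraries were made after selection of RNA with poly(A) tails, so the values describe the histone RNA that passed that selection, with or without a tail, and not the whole histone message pool.

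The hairpin was searched for in GENCODE vM21 transcripts because it marks the messages that need no tail. A stem-loop of the form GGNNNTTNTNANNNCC stood after the stop codon in 46 of 66 members with a protein-coding model. Of the 50 members with at least 40 annotated bases after the stop codon, 46 had one, and 13 models had no base after it. In the last 100 bases of the transcript the form was found in 34.8% of the members and in 0.38% of 21828 protein-coding genes. In the 3 forms shown, capitals mark the bases of the stem. The first was found in 26 members of types H1, H2A, H2B and H3, the next in 7 H4 genes, and the third in 6 members, among them Hist1h2bb and Hist1h3c.
Hist1h2ao and 25 others: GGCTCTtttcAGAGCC
Hist1h4d and 6 others: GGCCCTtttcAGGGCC
Hist1h2bb and 5 others: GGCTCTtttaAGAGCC

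Copies of one type are so alike that short reads can often not be placed on a single copy, which limits every value for a single gene. The H2A genes are shown as the type with the highest summed level. Of the 18, Hist1h2ao and 11 other Hist1 genes form a near-identical set, in which each gene differs from Hist1h2ao at no more than 12 of 393 coding bases. The remaining 6 differ from it at 34 to 65. The first 90 coding bases of 5 H2A genes are shown, with capitals at the bases that differ from Hist1h2ao.
Hist1h2ao: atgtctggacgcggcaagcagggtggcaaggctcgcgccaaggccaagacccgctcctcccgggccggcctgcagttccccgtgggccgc
Hist1h2ag: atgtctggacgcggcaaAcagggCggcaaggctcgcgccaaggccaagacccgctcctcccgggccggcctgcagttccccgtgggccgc
Hist1h2ak: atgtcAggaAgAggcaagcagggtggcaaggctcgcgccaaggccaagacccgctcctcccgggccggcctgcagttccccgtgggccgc
Hist2h2aa2: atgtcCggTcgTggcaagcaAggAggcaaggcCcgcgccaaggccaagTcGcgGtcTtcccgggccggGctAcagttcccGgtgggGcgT
Hist3h2a: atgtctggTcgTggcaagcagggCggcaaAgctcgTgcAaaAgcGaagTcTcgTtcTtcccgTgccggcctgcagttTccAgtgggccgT

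Over the whole coding sequence Hist1h2ag differed from Hist1h2ao at 3 bases, Hist1h2ak at 12, Hist2h2aa2 at 34 and Hist3h2a at 45. Hist1h2ao and Hist1h2ap have the same coding sequence and, in the deposited table, the same locus (chromosome 13, 21902236 to 21902749). Hist1h4m and Hist1h4n share a locus as well, as do Hist2h2aa1 and Hist2h2aa2, and Hist1h1e and Hist1h2be lie in a joint locus of 38889 bases. Coding identity between members of a type had a median of 97.1% for H3, 93.9% for H4, 91.3% for H2A, 90.15% for H2B and 70.6% for H1. How reads were divided between copies is not given in the sources used here, so single-copy values are uncertain and sums over copies are given beside them.

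Added over all 67 genes, clustered histone RNA came to 298, 238 and 293 FPKM in xHet embryos 1 to 3. In the xHomo embryos the lowest sum was 315, the median 517 and the highest 624 FPKM. Every xHomo sum lay above every xHet sum, so the groups did not overlap, and the means were 276 ± 32.9 (SD, n = 3) and 494 ± 102 FPKM (SD, n = 10), a ratio of 1.79. The ratio of group means was 2.19 for H2A, against 1.54 for H1, 1.52 for H2B, 1.52 for H4 and 1.44 for H3; whether the types differ in this ratio was not tested. The sums stayed a small part of the libraries, 0.0436% to 0.0538% of all FPKM in xHet and 0.0540% to 0.101% in xHomo embryos. In bulk RNA of whole embryos, a larger share of cells in S phase and more histone RNA per cell cannot be told apart.

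**Figure D1:**
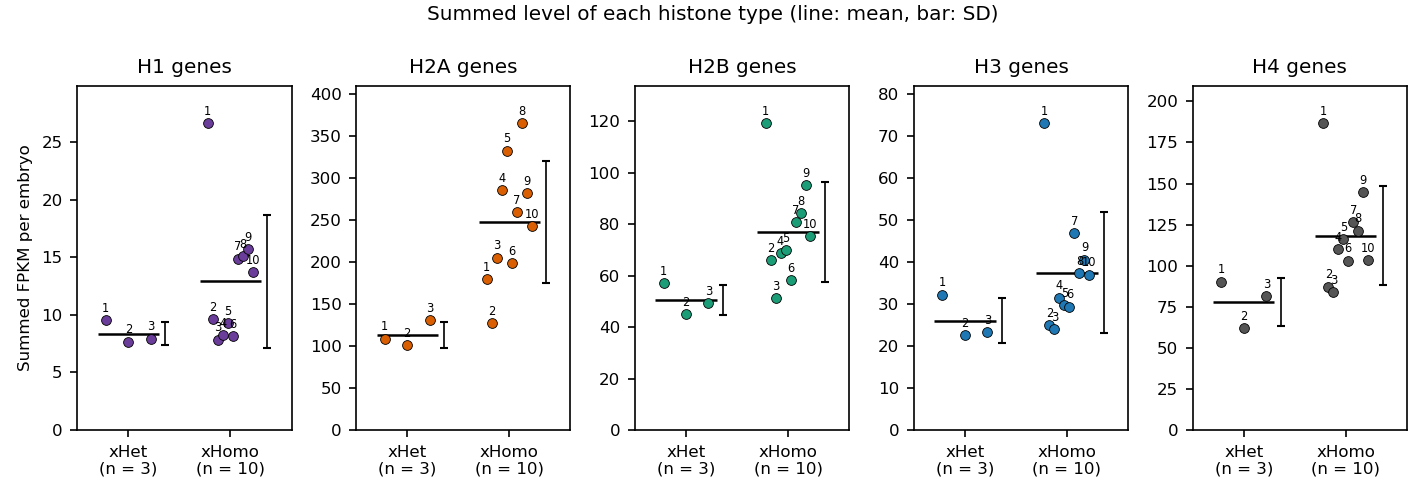
Summed FPKM of the members of each histone type in each embryo (points, numbered by embryo), with the group mean (line) and SD (bar); each panel has its own axis from 0. H2A sums reach 366 FPKM in xHomo embryo 8, while H1, H2B, H3 and H4 sums are highest in xHomo embryo 1.

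No single member passed the test between the groups. Of the 67 members, 10 had a mean under 1 FPKM, none of them at 0 in all embryos, and the other 57 were tested with limma on log2(FPKM+1), with Benjamini-Hochberg adjustment over all 12755 genes tested. Adjusted p was under 0.05 for 0 of 57 members, and the background over all genes was 0.0235%, 3 genes. At an unadjusted p under 0.05, 24 of 57 members (42.1%) had higher values in xHomo embryos, against 7.63% of all genes tested, and 0 members had lower values, against 1.72%. The exact permutation test per gene, whose smallest p is 0.0035, gave 18 members at an unadjusted p under 0.05. The share of all genes at that permutation p was not taken. After adjustment 0 members and 0 of all 12755 genes passed by permutation. With limma's array weights, which give embryos far from the rest less weight, 32 of 57 members passed, and so did 21.8% of all genes. The estimate was above 0 for 56 of 57 members (98.2%), against 59.7% of all genes. The median log2 change of the members tested was 0.50, against 0.05 for all genes.

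Members can share reads and so are not independent of each other, and these shares describe the family without testing it. Groups did not overlap, with every xHomo embryo above every xHet embryo, for 8 of 57 tested members (14.0%), against 1.66% of tested genes. These were Hist1h2ad, Hist1h2ae, Hist1h2ag, Hist1h2ai, Hist1h2ak, Hist1h2an, Hist2h2aa2 and Hist1h2bb. Over all members, tested or not, it was 9 of 67 (13.4%), with Hist1h2ac added, against 1.13% of genes above 0 somewhere. The near-identical Hist1 H2A genes held 6 of the 8 that were tested. Of the 11 tested in that set 10 had an unadjusted p under 0.05 (limma adjusted p from 0.321 to 0.667), and of the other 46 tested members 14 (30.4%) did, with a median log2 change of 0.42.

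The H2A genes had the highest median log2 change of the types, 0.81 over 15 tested genes, against 0.37 to 0.47 for the others. Of the 15, 12 had an unadjusted p under 0.05, against 7.63% of all genes, and estimates ran from 0.22 to 1.36. Hist1h2ao, the member with the most RNA, was 21.15, 26.4 and 35.2 FPKM in xHet embryos 1 to 3, and 30.9 at the lowest, 70.4 at the median and 125 FPKM at the highest in xHomo embryos. Only xHomo embryo 2 lay within the xHet range, and xHomo embryos 8 and 5 (121 FPKM) stood above the others. The log2 change was 1.36 (SE 0.33, limma adjusted p = 0.367). Its copy Hist1h2ap was 13.95, 7.60 and 10.98 FPKM in xHet embryos and 4.88 to 51.1 FPKM in xHomo embryos, with embryo 1 lowest and embryo 4 highest, and the groups overlapped. Added together at their joint locus these copies came to 35.1, 34.0 and 46.1 FPKM in xHet embryos and 40.8 to 146 FPKM in xHomo embryos, with 9 of 10 xHomo embryos above all xHet embryos.

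Other H2A genes of Hist1 gave a similar picture at lower levels. Hist1h2ag was 12.3, 9.71 and 13 FPKM in xHet embryos, and 13.8, 27.1 and 39.2 FPKM at the lowest, median and highest in xHomo embryos. The difference on the log2 scale was 1.08 with an SE of 0.26 (limma adjusted p = 0.346). Hist1h2an was 6.26, 6.01 and 7.07 FPKM in xHet embryos, and 7.81, 13.1 and 20.8 FPKM at those points in xHomo embryos. This gave a log2 change of 0.94 with an SE of 0.20 (limma adjusted p = 0.321). Hist1h2ak was 3.32, 2.51 and 3.31 FPKM, and 3.56, 8.13 and 11.6 FPKM (log2 change 1.05, SE 0.25, limma adjusted p = 0.346). In each of these 3 genes xHomo embryo 8 was highest, xHomo embryo 2 was the lowest of its group and all xHomo embryos lay above the xHet embryos.

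Hist1h2ad and Hist1h2ah stood at 9.81 ± 1.43 and 10.3 ± 2.11 FPKM in xHet embryos (SD, n = 3) and at 20.2 ± 5.48 and 20.3 ± 5.36 FPKM in xHomo embryos (SD, n = 10). Hist1h2ae, with lower values, stood at 2.58 ± 0.276 and 4.72 ± 0.984 FPKM (log2 change 0.66, SE 0.15, limma adjusted p = 0.338). The 12 near-identical genes together came to 96.9, 90.3 and 119 FPKM in xHet embryos and to 115 to 339 FPKM in xHomo embryos, a ratio of means of 2.23. They made up 85.9% to 94.3% of all H2A FPKM. The other 6 H2A genes had a ratio of 1.74, and all members that are not H2A one of 1.51.

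**Figure D2:**
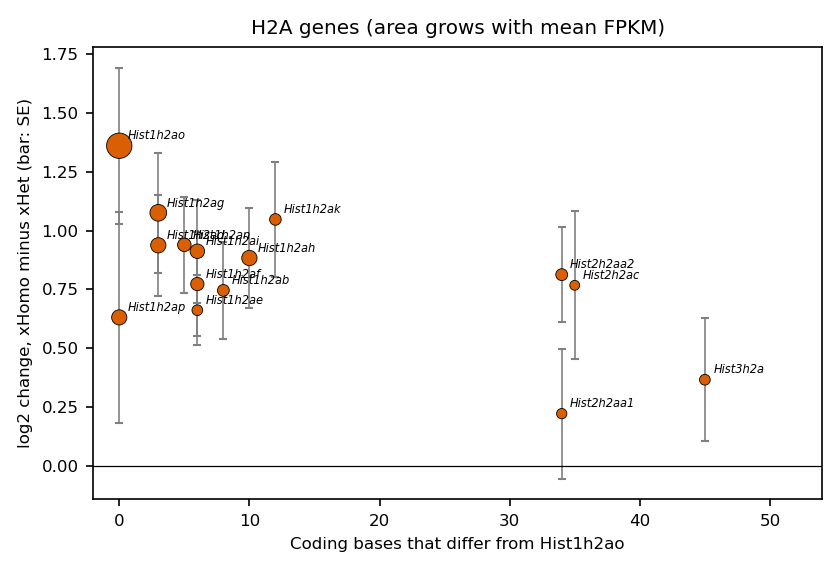
log2 change (xHomo minus xHet, bar: SE) of the 15 tested H2A genes against the number of coding bases, of 393, that differ from Hist1h2ao; point area grows with mean FPKM. The 11 genes at 12 or fewer differing bases have estimates from 0.63 to 1.36, and the 4 at 34 or more from 0.22 to 0.81.

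H2A outside Hist1 is encoded in Hist2 and Hist3. Hist2h2aa2 was 4.56, 3.48 and 4.42 FPKM in xHet embryos, and 4.96, 8.32 and 12.4 FPKM at the lowest, median and highest in xHomo embryos. The log2 change was 0.81 with an SE of 0.20 (limma adjusted p = 0.372). Its groups did not overlap. Its copy Hist2h2aa1, which shares its locus, stood at 2.64 ± 0.662 and 3.44 ± 1.70 FPKM with overlapping groups, and the copies summed gave 7.93, 5.95 and 6.5 FPKM in xHet and 6.39 to 16.6 FPKM in xHomo embryos. Hist2h2ac was 0.550, 1.24 and 1.27 FPKM in xHet embryos and 0.900 to 5.43 FPKM in xHomo embryos, with embryos 9 and 1 highest. Hist2h2ab stayed under 1 FPKM on average (0.343 ± 0.186 and 0.747 ± 0.352) and was not tested. Hist3h2a, known to give messages with a poly(A) tail, was 3.13, 3.23 and 3.09 FPKM in xHet embryos and 1.95 to 9.22 FPKM in xHomo embryos. Embryos 1 and 2 of the xHomo group lay below all xHet embryos for Hist3h2a and embryo 9 stood highest.

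H2B, the partner of H2A in the nucleosome, had a smaller ratio of group means. Summed H2B was 56.9, 45.1 and 49.3 FPKM in xHet embryos and had a lowest value of 51.3, a median of 72.6 and a highest of 119 FPKM in xHomo embryos. Only xHomo embryo 3 lay within the xHet range. Of 16 tested H2B genes 5 had an unadjusted p under 0.05, all with higher values in xHomo embryos, against 7.63% of all genes, and the median log2 change was 0.42.

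Hist1h2bb was the one H2B gene whose groups did not overlap, at 2.56 ± 0.347 FPKM in the xHet group and 5.90 ± 3.49 FPKM in the xHomo group (limma adjusted p = 0.494). It is not among the genes the naming rule picks and was chosen after its values were seen. Hist1h2bk was 7.14, 4.02 and 4.36 FPKM in xHet embryos, and 4.61, 8.01 and 11.9 FPKM at the lowest, median and highest in xHomo embryos. The difference on the log2 scale was 0.57 with an SE of 0.25 (limma adjusted p = 0.521). Its groups overlapped in xHomo embryos 3, 6 and 10. Hist1h2bj had the highest H2B mean, with 7.03, 4.34 and 9.63 FPKM in xHet embryos and 4.90 to 12.5 FPKM in xHomo embryos, and 4 of 10 xHomo embryos above all xHet embryos. Hist1h2bn stood at 3.89 ± 0.714 and 6.58 ± 2.63 FPKM and Hist3h2ba at 5.68 ± 0.948 and 8.27 ± 3.48 FPKM, both highest in xHomo embryo 9. Hist2h2bb (3.13 ± 0.571 and 4.09 ± 1.58 FPKM) was highest in xHomo embryo 1.

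H4 genes came second to H2A in summed level. Summed H4 was 90.3, 61.9 and 81.3 FPKM in xHet embryos, and 83.8, 113 and 187 FPKM at the lowest, median and highest in xHomo embryos, with 8 of 10 above all xHet embryos. Of 13 tested H4 genes 7 had an unadjusted p under 0.05, all with higher values in xHomo embryos, against 7.63% of all genes, and 0 had groups without overlap, against 1.66%. Hist1h4d had the smallest p of all members. It was 6.41, 3.77 and 6.92 FPKM in xHet embryos, and 6.91, 11.2 and 14.4 FPKM at the lowest, median and highest in xHomo embryos. This gave a log2 change of 0.87 with an SE of 0.19 (limma adjusted p = 0.321). Only xHomo embryo 3, with the lowest value of its group, lay within the xHet range. Leaving out 1 embryo at a time, Hist1h4d passed in 1 of 13 fits, that without xHomo embryo 3 (limma adjusted p = 0.0459), and its limma adjusted p reached 0.953 without xHet embryo 2. It did not pass with xHomo embryos 1 and 3 both left out (limma adjusted p = 0.0635).

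Hist1h4i, the H4 gene with the most RNA, was 26.3, 11.4 and 26.3 FPKM in xHet embryos and 17.9 to 31.5 FPKM in xHomo embryos. The groups overlapped widely and its estimate rested on the low value of xHet embryo 2. Without that embryo the log2 change was -0.030. Hist1h4n stood at 12.8 ± 2.38 and 17.9 ± 4.30 FPKM, and Hist1h4m, at the same locus, was 1.09, 0 (as listed) and 1.44 FPKM in xHet embryos and 0.540 to 10.9 FPKM in xHomo embryos. Their sum was 15.8, 13.5 and 11.5 FPKM in xHet and 14.8 to 32.0 FPKM in xHomo embryos, with 8 of 10 xHomo embryos above all xHet embryos. Hist1h4b (7.14 ± 1.56 and 10.4 ± 3.77 FPKM) was highest in xHomo embryos 9 and 1.

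H3 genes, whose products carry many of the known chromatin marks, had 0 of 9 tested members at an unadjusted p under 0.05. Among all genes 7.63% were higher and 1.72% lower at that p, and 9 genes are too few to be set apart from these shares. All 9 H3 estimates were above 0, with a median log2 change of 0.37. Summed H3 was 32.2, 22.5 and 23.3 FPKM in xHet embryos, and 23.9, 34.3 and 73.2 FPKM at the lowest, median and highest in xHomo embryos. Only 5 of 10 xHomo embryos lay above all xHet embryos, and embryo 1 stood far above the next, embryo 7 with 47.0 FPKM. Hist1h3c was 6.10, 2.77 and 5.68 FPKM in xHet embryos and 4.06 to 9.27 FPKM in xHomo embryos. Hist1h3b stood at 4.05 ± 1.47 and 5.01 ± 1.92 FPKM and Hist1h3i at 2.60 ± 0.315 and 4.08 ± 2.12 FPKM, both highest in xHomo embryo 1. Hist2h3b was 1.16, 1.55 and 1.81 FPKM in xHet embryos, and 1.45, 2.89 and 11.01 FPKM at the lowest, median and highest in xHomo embryos. The log2 change was 0.71 with an SE of 0.34 (limma adjusted p = 0.544). Its highest value, in xHomo embryo 1, lay well above the next one, 3.93 FPKM in embryo 6.

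H1, the linker histone that sits where DNA enters and leaves the nucleosome, had the lowest summed level. Summed H1 was 9.56, 7.66 and 7.92 FPKM in xHet embryos, and 7.84, 11.7 and 26.7 FPKM at the lowest, median and highest in xHomo embryos. The groups overlapped, with 6 of 10 xHomo embryos above all xHet embryos. At an unadjusted p under 0.05 stood 0 of 4 tested H1 genes, against 7.63% higher and 1.72% lower among all genes. So few genes cannot be set apart from these shares. All 4 estimates were above 0, with a median log2 change of 0.44. Hist1h1c, the H1 gene with the most RNA, had 5.54, 4.58 and 4.54 FPKM in xHet embryos and 3.61 to 11.8 FPKM in xHomo embryos. Hist1h1e was 0.670, 0.660 and 0.750 FPKM in xHet embryos, and 0.740, 1.49 and 3.97 FPKM at the lowest, median and highest in xHomo embryos. The difference on the log2 scale was 0.57 with an SE of 0.27 (limma adjusted p = 0.531). Hist1h1b (1.41 ± 0.769 and 2.18 ± 1.26 FPKM) and Hist1h1a (0.827 ± 0.235 and 1.73 ± 0.962 FPKM) were both highest in xHomo embryo 1. The testis forms Hist1h1t and Hist1h2aa stayed under 1 FPKM in all 13 embryos, and Hist1h2ba, also a testis form, was 0.600 to 1.52 FPKM in xHet and 0.370 to 2.49 FPKM in xHomo embryos.

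**Figure D3:**
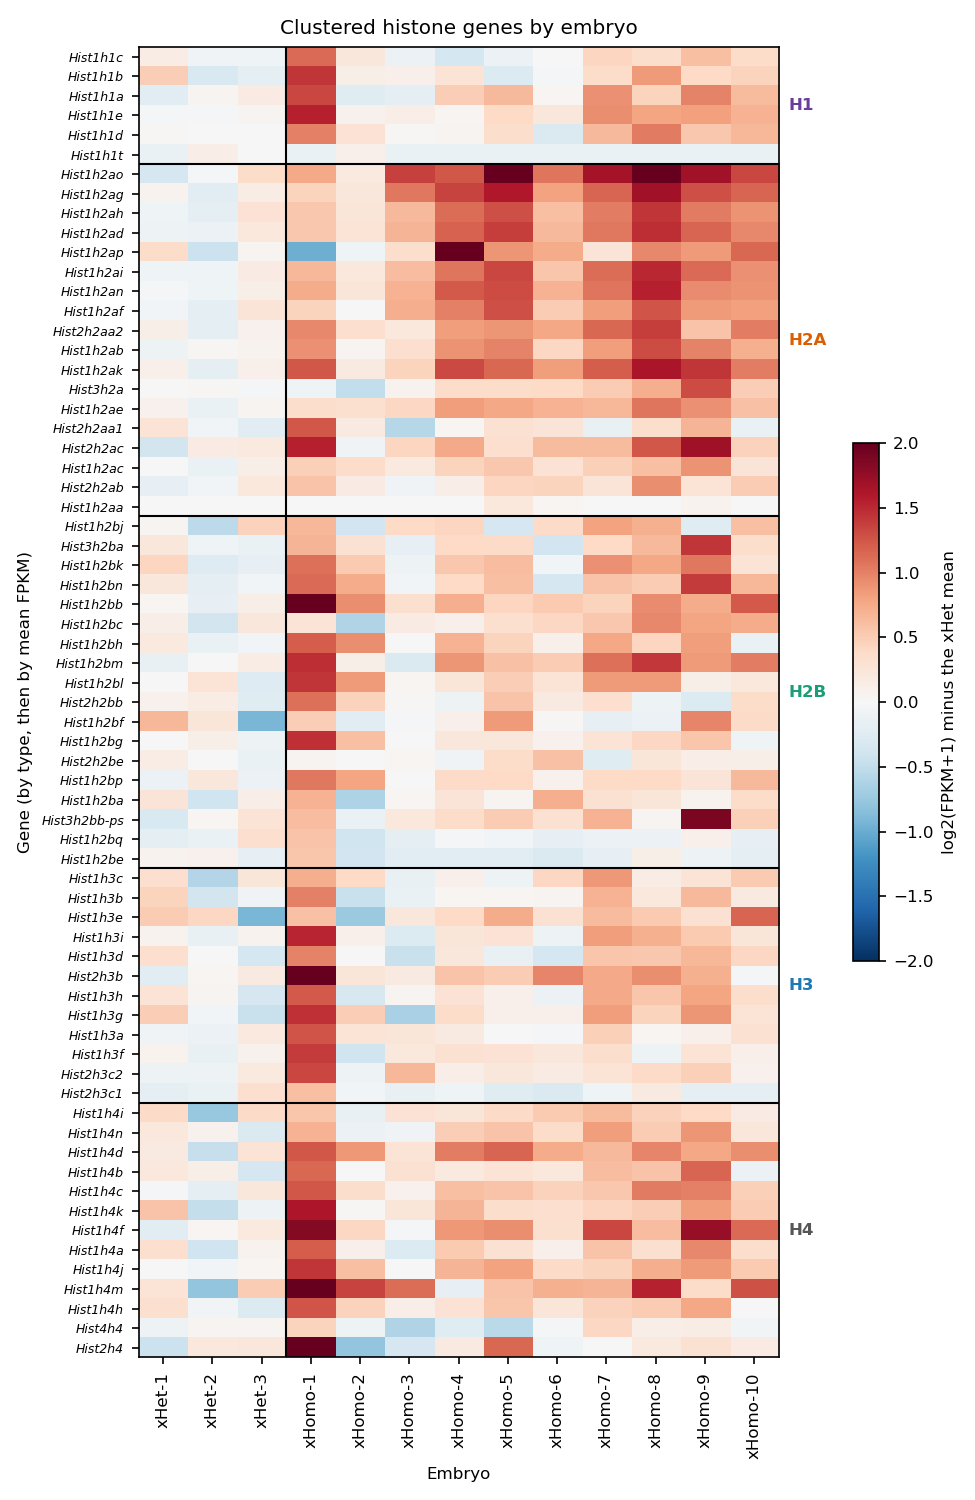
log2(FPKM+1) of each of the 67 members in each embryo minus the mean of the 3 xHet embryos, with colours ending at 2 log2 units either way; genes are grouped by type and ordered by mean FPKM. The xHomo embryo 1 column is dark in H1, H2B, H3 and H4 and paler in H2A, and the xHomo embryo 8 column is darkest in H2A.

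The xHomo embryos with the highest values were not the same for all types, a description for which no test was run. Of the 67 members, xHomo embryo 1 had the highest value of all embryos in 35, namely 10 H2B, 10 H3, 10 H4, 4 H1 and 1 H2A gene. The share of all genes that were highest in each embryo is not given here, so such counts have no background. Embryo 8 was highest in 13, of which 11 were H2A genes, and embryo 9 in 9. Against the xHet mean the median fold in xHomo embryo 1 was 3.99 for H1, 3.12 for H3, 2.59 for H4, 2.38 for H2B and 1.67 for H2A. In xHomo embryo 8 H2A came first, with 2.96 for H2A, 2.04 for H1, 1.53 for H4, 1.51 for H2B and 1.46 for H3. Embryo 1 exceeded embryo 8 in 12 of 12 H3, 13 of 13 H4, 15 of 18 H2B and 4 of 6 H1 genes, but in 2 of 18 H2A genes. Genes of a type can share reads, and most of the H2A genes highest in embryo 8 belong to the near-identical set. These counts are therefore not of independent genes.

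H2A made up 36.5% to 44.7% of summed member FPKM in the xHet embryos, 30.6% in xHomo embryo 1, 40.4% in xHomo embryo 2 and 48.8% to 59.6% in the other 8 xHomo embryos. By the median log2 difference of the tested members from the xHet mean, embryos 2 and 3 were the lowest xHomo embryos, at 0.18 and 0.09. In embryo 2, 30 members lay above and 10 below all xHet embryos, in embryo 3, 22 above and 9 below, and in embryo 1, 61 above and 2 below. The shares of all genes above or below all xHet embryos are not given here, so these counts have no background. Embryo 3 also differed from the xHet embryos across all genes. In it 10.2% of tested genes lay at least 1 log2 unit away, against 1.45% to 4.56% in the other xHomo embryos. Its median log2 difference over all tested genes was -0.27, against -0.0035 to 0.17 in the other xHomo embryos. Values in embryo 3 were thus low across genes, while its H2A share was 55.2%. The part of this shift in its member values was not tested.

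**Figure D4:**
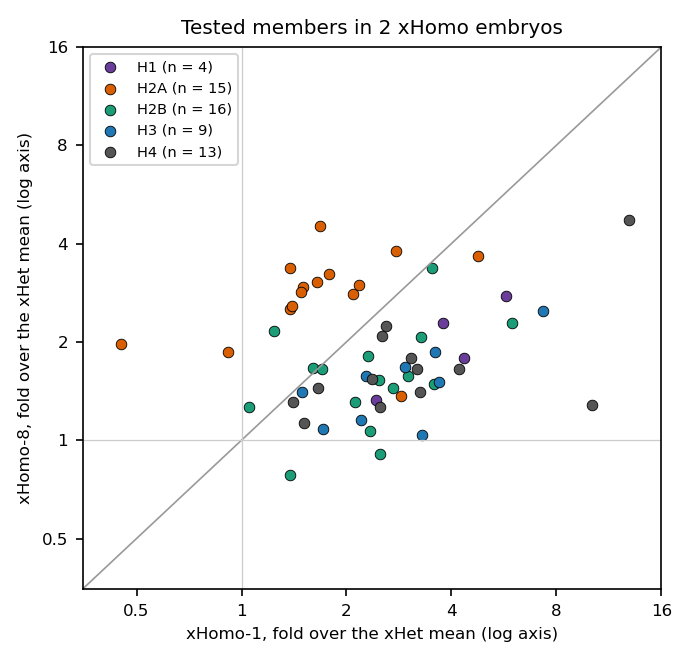
Fold over the xHet mean in xHomo embryo 1 (horizontal) and xHomo embryo 8 (vertical), both on log axes, for the 57 tested members coloured by type; the diagonal marks equal folds. The H2A points lie above the diagonal except those of Hist2h2aa1 and Hist2h2ac, and all H3 and H4 points lie below it.

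Neighbouring H2A and H2B genes, which often stand head to head over a shared promoter, were compared as pairs, without a test. Of 14 pairs within 1000 bases of each other, some of which share a gene or have another member between them, 9 had both genes tested, and in 8 of these the log2 change of the H2A gene was the larger. In the pair Hist1h2ag and Hist1h2bj, 281 bases apart, the log2 changes were 1.08 and 0.30. In the pair Hist1h2an and Hist1h2bp, 270 bases apart, they were 0.94 and 0.44. The H2A gene was highest in xHomo embryo 8 and the H2B gene in xHomo embryo 1 in 5 of the 14 pairs. The exception among the 9 was Hist3h2a with Hist3h2bb-ps, at 0.37 and 0.50. Apart from Hist3h2a and Hist2h2ac, the H2A genes of the 9 pairs belong to the near-identical set and can share reads. The pairs are therefore not independent. Hist2h2ac and Hist2h2be had log2 changes of 0.77 and 0.13.

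Promoters were read from RefSeq (GRCm38.p6), over 250 bases before to 50 after the start. There 60 of 67 members were matched by their older symbol, listed as a synonym of the current one. Shown are the last 130 bases before the start for an H2A, an H2B and an H4 gene named above, with capitals at the motifs described in the next paragraph, on either strand.
Hist1h2ag, chr13:22042950-22043079, minus strand: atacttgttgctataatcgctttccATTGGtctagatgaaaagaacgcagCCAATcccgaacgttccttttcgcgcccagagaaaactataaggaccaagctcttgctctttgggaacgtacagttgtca
Hist1h2bb, chr13:23746604-23746733, plus strand: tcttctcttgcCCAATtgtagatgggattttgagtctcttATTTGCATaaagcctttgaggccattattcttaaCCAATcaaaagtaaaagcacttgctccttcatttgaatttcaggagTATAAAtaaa
Hist1h4d, chr13:23581438-23581567, plus strand: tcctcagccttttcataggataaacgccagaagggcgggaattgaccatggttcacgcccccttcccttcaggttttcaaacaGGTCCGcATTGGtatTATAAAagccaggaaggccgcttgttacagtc

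Motifs were searched on both strands of the whole window, and the types carried different ones. CCAAT was present in 100% of the H1, H2A, H2B and H3 promoters, in 25.0% of the H4 promoters and in 41.1% of all 27025 RefSeq promoters. ATTTGCAT, the octamer, was present in 7 of 17 H2A and 7 of 15 H2B promoters and in 0 of the other types, against 1.97% of all promoters. GGTCCG was found in 11 of 12 H4 promoters, against 9.44% of all, AAACACA in 5 of 6 H1 promoters, against 8.22%, and TATAAA in 58.3% of the members, against 15.7%. A match is a run of letters and not a measured binding site.

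The clusters were compared next. Summed Hist2 was 16.4, 16.3 and 16.8 FPKM in xHet embryos, and 17.3, 26.2 and 54.8 FPKM at the lowest, median and highest in xHomo embryos, with xHomo embryo 1 highest and the groups not overlapping. Within it Hist2h4 was 0.280, 1.01 and 1.02 FPKM in xHet embryos, was listed at 0 in xHomo embryo 2 and reached 7.79 FPKM in xHomo embryo 1, while Hist2h3c1 and Hist2h3c2 had means under 1 FPKM and were not tested. Summed Hist3 was 10.2, 9.08 and 9.07 FPKM and 9.09 to 31.0 FPKM, with overlap and xHomo embryo 9 highest. Hist4h4 was 2.11, 2.44 and 2.45 FPKM in xHet and 1.2 to 3.52 FPKM in xHomo embryos, and was the only tested member with an estimate below 0 (log2 change -0.04, SE 0.20, limma adjusted p = 0.956). Hist1 fell into 3 blocks parted by more than 200 kb, with median log2 changes of 0.60, 0.57 and 0.44 over 16, 5 and 25 tested members. Within each block the H2A median was the highest of the types, at 0.94, 0.98 and 0.76. The tested H2A genes of all 3 blocks belong to the near-identical set. The same reads can feed these medians, so the blocks are not independent. The stretch from the first to the last Hist1 member also holds 52 other genes, of which 5 were tested, 0 passed and 1 had a higher value at an unadjusted p under 0.05, with a median log2 change of -0.12.

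**Figure D5:**
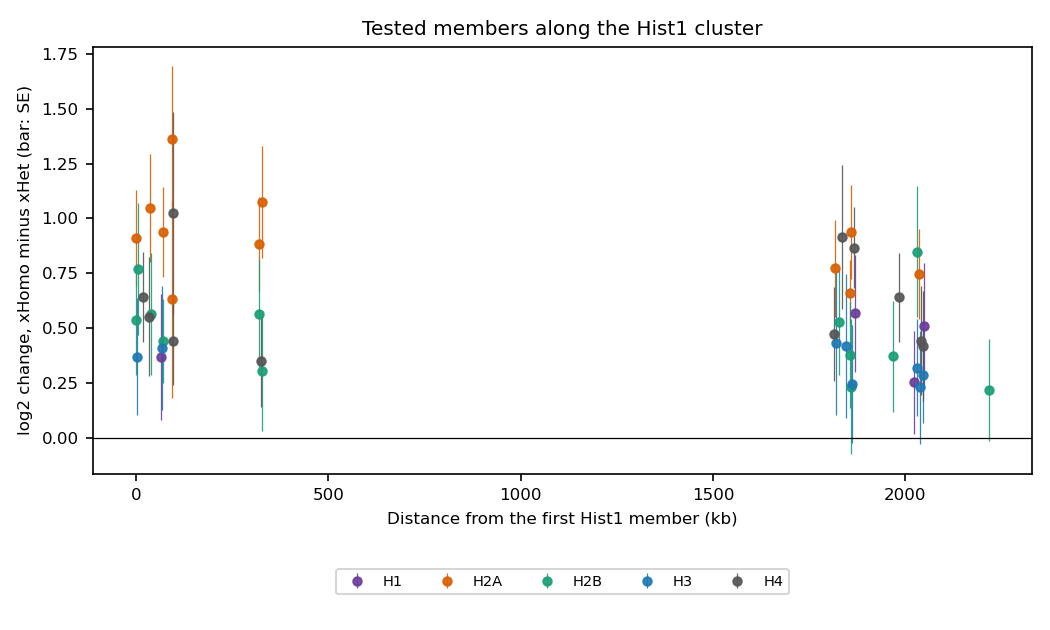
log2 change (xHomo minus xHet, bar: SE) of the tested Hist1 members by distance from the first member in kb, coloured by histone type. The topmost point of each of the 3 blocks is an H2A gene, with H4 and H2B genes above other H2A genes in places, and all estimates are above 0. The H2A genes shown all belong to the near-identical set and can share reads.

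Members known to give messages with a poly(A) tail, Hist1h1c, Hist1h2bc, Hist2h2be and Hist3h2a, had 0 of 4 at an unadjusted p under 0.05. Among all genes 7.63% were higher and 1.72% lower at that p, and 4 genes are too few to be set apart from these shares. All 4 estimates were above 0, with a median log2 change of 0.31. Hist2h2be stood at 2.16 ± 0.306 and 2.48 ± 0.58 FPKM, and Hist1h2bc at 3.69 ± 0.962 and 5.21 ± 1.71 FPKM. Split by the length of the deposited locus, the 48 tested members of at most 700 bases had a median log2 change of 0.53, and the 9 longer ones one of 0.37. Whether these medians differ beyond the spread between embryos was not tested.

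Genes that work with the clustered histones were counted from lists. Of 11 replacement and variant histone genes outside the clusters, 0 passed after adjustment. At an unadjusted p under 0.05, 4 had higher values and 0 lower, against 7.63% and 1.72% of all genes. All 11 estimates were above 0, against 59.7% of all genes, with a median log2 change of 0.27. H2afx, whose product marks DNA breaks when phosphorylated, stood at 112 ± 4.39 and 147 ± 23.1 FPKM, and H1fx, a linker histone, at 76.1 ± 10.1 and 102 ± 15.3 FPKM (limma adjusted p = 0.494 for both). H3f3a, which encodes the replacement histone H3.3, stood at 532 ± 15.0 and 655 ± 86.9 FPKM and H2afy, which encodes macroH2A1, at 98.1 ± 5.26 and 115 ± 11.5 FPKM.

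The list for histone message processing held 15 genes, among them activators of histone genes such as Npat, and 0 passed. At an unadjusted p under 0.05, 3 had higher values and 0 lower, against 7.63% and 1.72% of all genes. The median log2 change of the whole list was 0.07. Slbp was 71.3, 70.3 and 66.2 FPKM in xHet embryos and 73.7 ± 9.55 FPKM (SD, n = 10) in the xHomo group, with limma adjusted p = 0.844. Npat, which activates histone genes at S phase, stood at 6.45 ± 0.37 and 6.40 ± 1.02 FPKM. Lsm10, a subunit of the U7 particle that cuts histone messages, stood at 8.89 ± 1.75 and 13.1 ± 2.29 FPKM, and Cpsf3, the cutting enzyme, at 29.1 ± 0.512 and 35.5 ± 2.58 FPKM (limma adjusted p = 0.449 for both). Sympk, its scaffold, stood at 39.9 ± 2.62 and 51.3 ± 8.02 FPKM.

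Of 16 histone chaperone genes 0 passed, with 1 higher and 0 lower at an unadjusted p under 0.05 and a median log2 change of 0.05. Rbbp7, the one counted, stood at 98.8 ± 3.71 and 113 ± 8.18 FPKM. Of 23 genes of S phase 0 passed, with 2 higher and 1 lower at an unadjusted p under 0.05 and a median log2 change of 0.06. Over all genes 7.63% were higher and 1.72% lower at that p, so the chaperone and S phase counts lay near the background. The genes counted were Mcm3 and Mcm6 of the replication helicase (69.3 ± 3.69 and 84.2 ± 10.9 FPKM, and 81.4 ± 4.96 and 93.0 ± 6.47 FPKM) and E2f1, a transcription factor of S phase entry (15.9 ± 1.38 and 11.6 ± 2.24 FPKM). The medians of the processing, chaperone and S phase lists lay near the 0.05 of all genes, and the clustered histones' median lay at 0.50; these lists were described and not tested against each other.

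Other measures stood high in some of the same embryos, and their part in the histone values was not tested. Among 9 tested genes listed as RNAs without a usual poly(A) tail the median log2 change was 0.46, with 0 passing, 0 higher and 1 lower at an unadjusted p under 0.05, against 7.63% and 1.72% of all genes. The lower one, Snhg3, is a spliced host gene of small nucleolar RNAs and does not belong with them. With Snhg3 left out, a choice made after seeing the data, 8 were tested, 0 were higher or lower at that p and the median was 0.49. The SEs of the 9 estimates ran from 0.14 for Snhg3 to 2.42 for Scarna2, so these medians are uncertain. Rnu11 and Rnu12 were listed at 0 in all xHet embryos. Of the 10 listed genes that were measured, 3 were highest in xHomo embryo 1, and the share of all genes highest there is not given here. Rmrp, chosen after its values were seen, was 37.0, 47.5 and 55.7 FPKM in xHet embryos, 358 FPKM in xHomo embryo 1, 117 FPKM in xHomo embryo 9 and 34.3 to 63.1 FPKM in the other 8. Rpph1, the RNA of ribonuclease P, was 22.5, 15.35 and 24.9 FPKM in xHet embryos, 72.6 FPKM in xHomo embryo 1 and 19.1 to 39.9 FPKM in the others. Other listed genes peaked elsewhere. Rnu11 was listed at 0 in xHomo embryo 1 and was highest in xHomo embryo 9 (58.1 FPKM). Scarna2 was highest in xHomo embryo 2 (5556 FPKM), with 5131 FPKM in xHomo embryo 1. Without xHomo embryo 1 the ratio of the summed members was 1.75, and 0 of 57 members passed after adjustment, against 0.0235% of all genes. In that fit 26 members had an unadjusted p under 0.05, and the share of all genes at that p was not taken.

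Of 8 red cell genes, all present in every embryo, 6 were highest in xHomo embryo 1, again without the share of all genes beside it. The sum of the 8 was 10060 to 10190 FPKM in xHet and 5166 to 15280 FPKM in xHomo embryos. Trophoblast and decidua genes summed to 1.57 to 3.96 and 1.56 to 5.91 FPKM, with 3 of 11, Tpbpa among them, at 0 in all embryos and 8 under 1 FPKM in all. Germ cell genes summed to 4.50 to 7.06 and 2.23 to 5 FPKM. Genes of neural tube, heart, somites, vessels and gut were at 1 FPKM or more in all embryos for 9 of 9. Xist, which coats an inactive X chromosome and so stands for sex here, was 0.05 to 0.08 FPKM in the xHet embryos, under 1 FPKM in xHomo embryos 1, 4, 5, 6 and 8 and 30.5 to 159 FPKM in the other 5 xHomo embryos. With Xist as a covariate the median log2 change of the members was 0.54, and 0 of 57 members passed after adjustment, against 0.00784% of all genes. In that fit 23 members had an unadjusted p under 0.05, and the share of all genes at that p was not taken.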

How the data were processed

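Per the labels' protocols, poly(A) RNA of 13 embryos was isolated and made into directional libraries. The tools bcl2fastq 1.8.2, TopHat and Cufflinks and the build mm9 are named per the submitters' processing notes. Not given in the sources used here are other versions, the annotation, the use of strand and the handling of reads with several matches. The authors deposited 1 table of FPKM values, which holds no counts, so depth is unknown and no counting interval is given. Replicate numbers only name embryos.

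The 67 members were used whole. Sums were taken over FPKM. Genes with a mean of at least 1 FPKM were tested on log2(FPKM+1) with limma 3.58.1 in R 4.3.3 (trended eBayes, two-sided, no covariate, Benjamini-Hochberg over 12755 genes, threshold 0.05); fold changes on this scale understate changes of low genes. Exact permutation used all 286 splits. The limma fit and the adjustment were tested on simulated data. Members and lists were chosen with earlier results of these data known. Named were, by rule, the 4 highest members of each type, the 6 with the smallest p per direction, the 4 most variable, all of Hist2 to Hist4, the testis forms, and up to 4 genes per pathway list with Slbp and Npat. Coding sequences and stem-loops are from GENCODE vM21; the stem-loop search was added after the data were seen. Dixon's test used log2(FPKM+1). Scaling, pseudocount, filter, weights, covariate, block and left-out embryos were varied. Python 3.11.15, pandas 2.3.3 and matplotlib 3.10.9 were used.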

Additional observations from a re-analysis of the deposited data

Results flagged for a closer look

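In 7 of 48 values examined by Dixon's test on log2(FPKM+1), 1 of the 10 xHomo embryos stood apart from the others beyond the 95% critical value; chance gives about 1 in 20. At the high end, Hist2h3b was 11.01 FPKM in xHomo embryo 1 (next 3.93 FPKM) and Hist2h3c1 was 1.22 FPKM in the same embryo (next 0.65 FPKM). The pseudogene Hist3h2bb-ps was 4.91 FPKM in xHomo embryo 9 (next 1.58 FPKM). Hist1h2aa was 0.18 FPKM in xHomo embryo 5 (next 0.07 FPKM), and Hist1h1t reached 0.18 FPKM in xHomo embryo 2 while the other 9 were listed at 0, levels too low to read. At the low end, xHomo embryo 2 stood apart for Hist1h2ba (0.37 FPKM, next 1.16 FPKM) and Hist1h3e (1.47 FPKM, next 3.81 FPKM).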

How the results depend on the processing

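The median log2 change of the tested members kept its sign, at 0.42 to 0.59 with 1 embryo left out and 0.29 to 0.64 under 13 other settings. The ratio of the summed members ran from 1.67 to 1.86 and from 1.53 to 1.801 under 5. With the 12 near-identical H2A genes left out, added after seeing the data like the joint removal of xHomo embryos 1 and 3 and the summing of shared loci, these were 0.42 and 1.53. Removing small RNA genes before rescaling moved the median of all genes to -0.12; the members' median was then 0.43.

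Members passing numbered 0 to 1 with 1 embryo left out, the 1 being Hist1h4d without xHomo embryo 3, and 32 with array weights, where 2779 genes (21.8%) passed, 2371 higher and 408 lower. The cause was not tested. All genes passing numbered 1 to 11 with 1 embryo left out, 11 without the filter, 5 after rescaling to TPM, 5 without small RNA genes, 5 after quantile normalization, 1 with the Xist covariate, 0 by exact permutation and 8 without xHomo embryos 1 and 3.

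Replicate numbers did not pair the embryos: deviations of same-numbered embryos correlated at -0.048, -0.052 and -0.060, among 9 pairs of -0.060 to 0.1. With the number as a block, on 6 embryos, 1 gene and 0 members passed, and the log2 change of Hist1h2ap was -0.24, of Hist1h2bc -0.05 and of Hist3h2a -0.17.

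Signs turned elsewhere for the log2 change of Hist2h2be (-0.0021) and the log2 change of Slbp (-0.10) without small RNA genes, and for Slbp after quantile normalization (-0.027). The log2 change of Npat turned with the Xist covariate (0.0085), array weights (0.0088) or without xHomo embryos 1 and 3 (0.055), and the log2 change of Hist4h4 with array weights (0.041). The cause was not tested. With 1 embryo left out, the log2 change of Hist1h4i ran from -0.030 (without xHet embryo 2) to 0.54, the log2 change of Hist1h3e from -0.045 and the log2 change of Scarna2 from -0.17 (both without xHet embryo 3) to 0.67 and 5.04, Npat from -0.064 to 0.039 (above 0 without xHet embryo 3 or xHomo embryo 3) and Hist4h4 from -0.095 to 0.020 (above 0 without xHomo embryo 3 or 5). Of 37 named members tested, 7 turned sign under any of 25 settings. Unknown depth and shared reads limit single genes most.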
